A study of Rattus norvegicus with 25 samples.

Results

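The Rab GTPase family was described in stable transformants of McArdle-RH7777 cells, which come from a rat liver tumour and make lipoproteins with apoB. Its members were all probe sets whose only gene symbol was Rab followed by a number and, in most cases, a letter. This gave 97 probe sets of 56 genes, out of 31042 probe sets and 14217 genes with a probe set of their own. Of the 56 genes, 29 had 1 probe set and 27 had 2 or more. Rab effectors were not included, and 3 probe sets that name a Rab gene together with another gene were left out. Each gene was represented by its brightest probe set.

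Rab proteins are small GTPases that mark the membranes of the secretory and endocytic routes. With GTP bound they recruit motors, tethers and other effectors to a membrane, and GTPase-activating proteins return them to the GDP form. Exchange factors load them again, and a C-terminal prenyl group holds them on the membrane. Rab1 and Rab2 act between the endoplasmic reticulum (ER) and the Golgi, the next step after the COPII vesicles that the GTPase Sar1 builds at the ER.

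The 4 groups were Sar1B:H79G, a constitutively active Sar1B mutant (2 lines, 8 arrays), native Sar1A (1 line, 4 arrays), native Sar1B (2 lines, 8 arrays) and control (2 lines, 5 arrays). The constructs were human, FLAG-tagged and tetracycline-inducible cDNAs in picked clones that carried a tetracycline repressor, and the study's legends describe the controls as cells with an empty vector. All cells, controls included, were grown with the same selection antibiotics and with tetracycline at 1 µg/ml for 24 h. The rat probe sets were not designed for the human constructs, so construct level was not checked here. The study reports more recombinant Sar1 protein in its Sar1A lines than in its Sar1B and Sar1B:H79G lines. Kind of construct and construct level therefore cannot be told apart in differences among the Sar1 groups. Arrays of a line were technical replicates, so the line was the replicate: the values below are line means of log2 signal, and p-values measure the spread between clones. For Sar1A, its 1 line was assumed to vary like the other groups. In bulk RNA of this kind, fewer cells with a transcript and less RNA per cell cannot be told apart. Signals were compared between lines and not between genes, apart from placing probe sets above or below the median probe set.

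Array medians lay between 8.10 and 8.16 log2 units, and all arrays differed in their values. All 7 measured hepatocyte markers lay above the median probe set, and their mean ranged from 11.49 to 12.25 over the lines. Of the markers of other liver cell types, 2 of 4 for cholangiocytes (Epcam and Spp1), 2 of 6 for fibroblasts and stellate cells (Acta2 and Col1a1), 1 of 5 for macrophages (Aif1) and 0 of 3 for endothelium lay above it. The means of these lists ran over the lines from 8.66 to 9.46, 7.68 to 7.76, 7.77 to 7.90 and 7.05 to 7.20. Against control 2 hepatocyte, 1 macrophage and 1 endothelial marker were called in the Sar1B:H79G lines, and their part in the results was not tested. Sample titles carry codes that start with ATB for control arrays and with TPB for all others, and what the codes mean is not stated. The 2 kinds of code are called array series here. A difference from control and a difference between the array series cannot be told apart. The beta-actin control probe sets moved with it: the signal at the 5′ end minus that at the 3′ end averaged -0.67 over the Sar1B:H79G lines, -0.61 in the Sar1A line, -0.50 over the Sar1B lines and -0.88 over the control lines. Differences among the 3 Sar1 groups lie within 1 series.

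A gene was called at an adjusted p under 0.05 (limma, Benjamini-Hochberg over all 31042 probe sets). In the Sar1B:H79G lines against control, 6 of 56 Rab genes rose and 6 fell, which is 10.7% in each direction. Over all genes 13.4% rose and 10.6% fell, so the family as a whole changed about as often as other genes. The median log2 difference was 0.08 over the Rab genes and 0.02 over all genes. Quantile normalization of the arrays turned the balance over all genes to 1528 higher and 2021 lower, against 1906 and 1501 here, and gave 5 higher and 8 lower Rab genes. Without control line 2, 3 Rab genes in all were called.

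Against Sar1B, 2 Rab genes rose and 5 fell in the Sar1B:H79G lines, with 4.9% of all genes higher and 7.18% lower. Against Sar1A, 1 rose and 3 fell, with backgrounds of 1.98% and 2.22%. These counts depend on single lines. Against Sar1B the count of 7 dropped to 4 without Sar1B line 1, to 1 without Sar1B line 2 and to 2 without either control line, although the controls enter it only through the shared estimate of spread. With only the groups compared fitted, the calls left against Sar1B were those of Rab4a and Rab6a, and none were left against Sar1A (limma; 9 genes at an unadjusted p under 0.05). Against Sar1A the count of 4 became 7 without Sar1B:H79G line 1 and 1 without either control line. Counted over probe sets, 15 of 97 rose and 8 fell against control (13.2% and 9.17% of all probe sets), and 5 rose and 6 fell against Sar1B (3.34% and 5.29%).

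**Figure D1:**
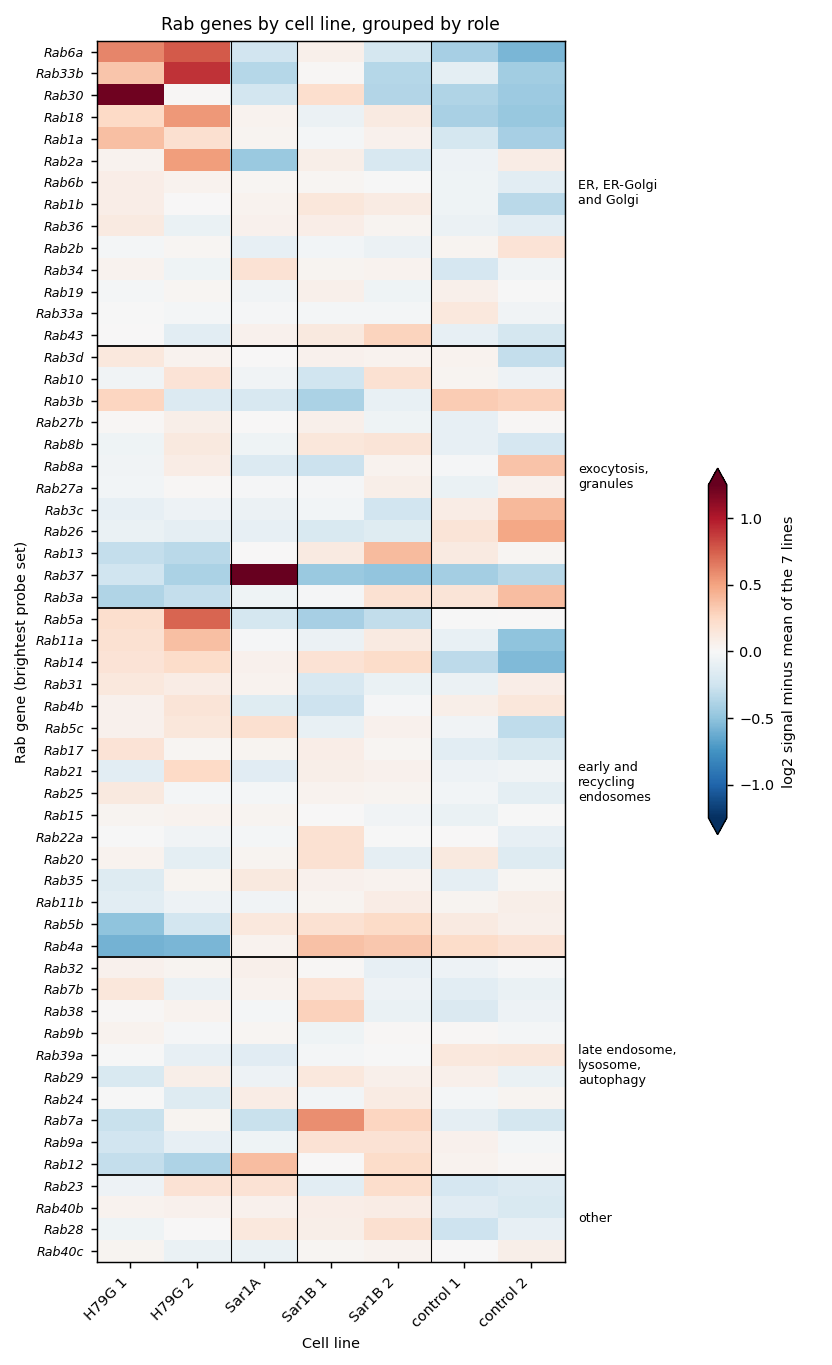
Log2 signal of the 56 Rab genes (rows, brightest probe set, grouped by role) in the 7 lines (columns), as the difference from each gene's mean over the lines; colours saturate at the ends of the scale. Rab6a is high in both Sar1B:H79G lines, Rab30 in Sar1B:H79G line 1 and Rab37 in the Sar1A line, while Rab4a is low in both Sar1B:H79G lines.

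Among the 14 measured Rab genes of the ER, the ER-Golgi route and the Golgi, 4 rose in the Sar1B:H79G lines against control and the other 10 did not pass the test, beside 13.4% of all genes higher and 10.6% lower. The median difference of the 14 was 0.20, against 0.02 over all genes. Those that rose were Rab6a, Rab33b, Rab18 and Rab1a. Against Sar1B, Rab6a alone of the 14 was called, and the median was 0.05.

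Rab6a acts at the Golgi in retrograde transport and in the departure of secretory vesicles. Its signal was 12.53 and 12.68 in the Sar1B:H79G lines, 11.68 in the Sar1A line, 11.98 and 11.70 in the Sar1B lines and 11.50 and 11.35 in the control lines. Both Sar1B:H79G lines, and all 8 of their arrays, lay above every array of the other 3 groups. The log2 difference was 1.18 (SE 0.12, a 2.27-fold rise) against control (limma adjusted p = 0.0027), 0.77 (SE 0.12, adjusted p = 0.015) against Sar1B and 0.93 (SE 0.14, adjusted p = 0.031) against Sar1A. The call against control held under all 15 alternatives. The call against Sar1B was lost without Sar1B line 2 or without Sar1B:H79G line 2 (adjusted p = 0.051 each), and that against Sar1A without Sar1B:H79G line 2 (0.079) or either control line (0.089 each).

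Rab33b is a Golgi Rab that also binds the autophagy protein Atg16L1. It measured 9.57 and 10.13 in Sar1B:H79G lines, 8.87 in the Sar1A line, 9.24 and 8.87 in Sar1B and 9.10 and 8.79 in control lines. The Sar1B:H79G lines were again the highest, but they differed from each other by 0.56. Rab33b rose by 0.90 (SE 0.22, adjusted p = 0.034) against control. The difference was 0.79 (SE 0.22, adjusted p = 0.085) against Sar1B and 0.98 (SE 0.27, adjusted p = 0.14) against Sar1A, neither of which passed the test. Without Sar1B:H79G line 2, control line 1 or control line 2 the adjusted p against control was 0.086, 0.075 and 0.19.

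Rab18, a Rab of the ER and of lipid droplets, had signals of 11.54 and 11.84 in Sar1B:H79G, 11.34 in the Sar1A line, 11.22 and 11.41 in Sar1B and 10.89 and 10.82 in control lines. All 3 Sar1 groups lay above the controls, with differences of 0.83 (SE 0.12, adjusted p = 0.0067) for Sar1B:H79G, 0.48 (SE 0.14, adjusted p = 0.13) for Sar1A and 0.46 (SE 0.12, adjusted p = 0.063) for Sar1B. Sar1B:H79G stood 0.37 (SE 0.12, adjusted p = 0.12) above Sar1B. Leaving out control line 2 ended the call (adjusted p = 0.066).

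Rab1a, the Rab of ER-to-Golgi transport, showed the same order at a smaller size. Its signal was 13.78 and 13.61 in Sar1B:H79G, 13.44 in the Sar1A line, 13.38 and 13.46 in Sar1B and 13.19 and 12.99 in control lines. It rose by 0.60 (SE 0.10, adjusted p = 0.010) against control, a call lost after quantile normalization (0.24, adjusted p = 0.0501) and without control line 2 (0.50, adjusted p = 0.069). Against Sar1B the difference was 0.27 (SE 0.10, adjusted p = 0.17). Its paralog Rab1b gave 11.39 and 11.31 in Sar1B:H79G, 11.35 in the Sar1A line, 11.45 and 11.41 in Sar1B and 11.25 and 10.97 in control lines, a difference from control of 0.24 (SE 0.10, adjusted p = 0.14). The Sar1A line lay between the Sar1B:H79G lines, and both Sar1B lines lay above them. This brightest Rab1b probe set is of a kind whose probes can match other transcripts, so that Rab1a and Rab1b signal may not be fully separate in it. Other Rab1b probe sets differed from control by 0.02 at 1382946_a_at (limma adjusted p = 0.92), 0.36 at 1382947_at (0.055) and 0.06 at 1398982_at (0.62). None of them was called.

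The promoters of the 3 ER-Golgi members with the largest called differences are shown to give the sequence upstream of genes that were high in the same lines. RefSeq's table (GRCr8) held 300 bases around the annotated start, most of them upstream of it, for 45 of the 56 Rab genes. They were searched on both strands for TGACGTG (the core bound by CREB3-type factors), CACGTG (the E-box core), TGATGNAA (the ATF4-C/EBP composite site) and the ER stress response element. None of these matched in the 3 windows, which are Rab6a at chr1:164369783-164370082, Rab18 at chr17:59639014-59639313 and Rab33b at chr2:137678728-137679027, all on the plus strand. Their GC content was 72.7%, 62.3% and 64.3%.
Rab6a: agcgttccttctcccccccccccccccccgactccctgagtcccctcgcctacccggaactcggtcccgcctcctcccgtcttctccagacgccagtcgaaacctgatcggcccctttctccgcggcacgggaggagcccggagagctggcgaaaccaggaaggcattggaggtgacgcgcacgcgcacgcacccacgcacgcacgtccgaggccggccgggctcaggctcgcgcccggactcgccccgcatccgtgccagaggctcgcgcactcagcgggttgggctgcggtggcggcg
Rab18: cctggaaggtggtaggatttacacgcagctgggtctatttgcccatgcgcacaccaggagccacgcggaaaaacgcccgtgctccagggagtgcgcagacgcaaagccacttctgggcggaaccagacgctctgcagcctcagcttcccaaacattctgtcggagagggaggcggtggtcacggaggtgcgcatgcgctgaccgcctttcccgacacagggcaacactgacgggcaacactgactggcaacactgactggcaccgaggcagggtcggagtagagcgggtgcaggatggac
Rab33b: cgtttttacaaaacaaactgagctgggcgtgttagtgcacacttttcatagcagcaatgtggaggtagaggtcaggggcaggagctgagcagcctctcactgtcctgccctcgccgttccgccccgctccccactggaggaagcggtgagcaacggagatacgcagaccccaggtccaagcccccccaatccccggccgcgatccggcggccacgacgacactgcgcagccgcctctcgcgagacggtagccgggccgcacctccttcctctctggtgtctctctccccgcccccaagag

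Over the 45 promoters, CACGTG occurred in 4 (8.89%, against 6.65% of all 27457 promoters), those of Rab5a, Rab20, Rab21 and Rab31. TGACGTG occurred in 1 (2.22%, against 1.88%), that of Rab21. TGATGNAA, found in 3.82% of all promoters, and the ER stress response element, found in 0.0765%, had no match among the 45. Shown next are Rab5a (chr9:6720877-6721176, plus strand), the member with a match that was called, and Rab21 (chr7:52814894-52815193, minus strand), the only one with both motifs. Capitals mark the matches, which do not overlap each other.
Rab5a: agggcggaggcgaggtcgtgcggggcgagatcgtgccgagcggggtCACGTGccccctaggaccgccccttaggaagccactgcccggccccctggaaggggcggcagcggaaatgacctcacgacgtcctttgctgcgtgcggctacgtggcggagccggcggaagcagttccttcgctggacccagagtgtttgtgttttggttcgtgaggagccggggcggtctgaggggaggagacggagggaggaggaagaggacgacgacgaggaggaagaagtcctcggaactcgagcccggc
Rab21: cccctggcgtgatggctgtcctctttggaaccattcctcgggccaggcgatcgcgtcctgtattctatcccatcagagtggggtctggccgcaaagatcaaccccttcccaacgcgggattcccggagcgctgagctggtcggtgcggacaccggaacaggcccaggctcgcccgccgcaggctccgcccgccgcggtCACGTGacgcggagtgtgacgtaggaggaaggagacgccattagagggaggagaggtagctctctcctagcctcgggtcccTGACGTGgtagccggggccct

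Rab2a, which acts in Golgi-to-ER and later transport, is measured by a pair of bright probe sets. They gave differences of the same sign but different calls in each comparison of Sar1B:H79G. The brightest, 1392681_at, read 11.77 and 12.25 in Sar1B:H79G, 11.27 in the Sar1A line, 11.80 and 11.53 in Sar1B and 11.67 and 11.82 in control lines, a difference from control of 0.26 (SE 0.17, adjusted p = 0.31). It differed by 0.34 (SE 0.17, adjusted p = 0.35) from Sar1B and by 0.74 (SE 0.21) from Sar1A, and neither was called. The other, 1370087_at, read 12.12 and 12.23 in Sar1B:H79G, 11.22 in the Sar1A line, 11.54 and 11.52 in Sar1B and 11.17 and 11.10 in control lines. By this probe set both Sar1B:H79G lines were the highest. It rose by 1.04 (SE 0.07, adjusted p = 0.0011) against control, by 0.65 (SE 0.07, adjusted p = 0.0058) against Sar1B and by 0.96 (SE 0.08, adjusted p = 0.0084) against Sar1A.

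Rab30, a Golgi Rab, set the Sar1B:H79G clones apart at its brightest probe set. The signal there was 10.20 in line 1 and 9.0 in line 2 of Sar1B:H79G, 8.76 in the Sar1A line, 9.20 and 8.62 in Sar1B and 8.61 and 8.53 in control lines. The 4 arrays of Sar1B:H79G line 1 read 10.01 to 10.45 and those of line 2 read 8.94 to 9.05. The group difference of 1.03 (SE 0.39, adjusted p = 0.10) did not pass the test. The gap of 1.20 between these clones was the largest between 2 lines of a group among the 56 Rab genes, whose median gap was 0.11 in Sar1B:H79G, 0.11 in Sar1B and 0.10 in control. The second Rab30 probe set, 1398640_at, did not show this: it read 7.82 and 7.67 in Sar1B:H79G, 7.73 in the Sar1A line, 7.77 and 7.66 in Sar1B and 7.82 and 7.74 in control lines, all below the median probe set. Rab30 is named here because of these values.

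**Figure D2:**
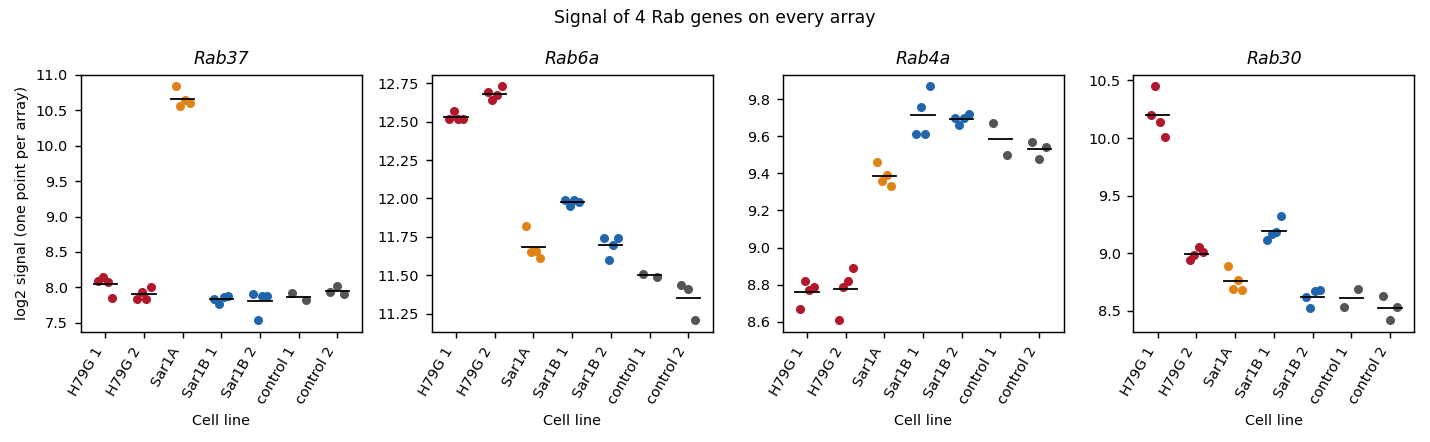
Log2 signal of Rab37, Rab6a, Rab4a and Rab30 on every array (points), by cell line, with the line mean as a bar. Rab37 is high on all 4 Sar1A arrays, Rab6a is highest and Rab4a lowest in both Sar1B:H79G lines, and Rab30 is high in 1 of the Sar1B:H79G lines.

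Of the 16 measured Rab genes of early and recycling endosomes, 2 rose (Rab14 and Rab11a) and 2 fell (Rab4a and Rab5b) in the Sar1B:H79G lines against control. Against Sar1B, Rab5a rose and Rab4a and Rab5b fell. The medians were 0.10 and 0.00. Over all genes 13.4% were higher and 10.6% lower against control, and 4.9% and 7.18% against Sar1B.

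Rab4a controls fast recycling from early endosomes to the cell surface. It measured 8.76 and 8.78 in Sar1B:H79G, 9.39 in the Sar1A line, 9.71 and 9.69 in Sar1B and 9.58 and 9.53 in control lines. The 8 Sar1B:H79G arrays ran from 8.61 to 8.89 and every other array was at 9.33 or above. Rab4a fell by 0.79 (SE 0.06, adjusted p = 0.0014) against control, by 0.93 (SE 0.06, adjusted p = 0.0020) against Sar1B and by 0.62 (SE 0.07, adjusted p = 0.016) against Sar1A. The calls against control and against Sar1B held under all 15 alternatives, with differences between -0.82 and -0.76 and between -0.94 and -0.86. That against Sar1A was lost with only these groups fitted (-0.62, adjusted p = 0.11) and without control line 1 or 2 (adjusted p = 0.0502 each).

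Rab5 proteins organise early endosomes. Rab5a read 10.79 and 11.31 in Sar1B:H79G, 10.36 in the Sar1A line, 10.17 and 10.27 in Sar1B and 10.58 and 10.59 in control lines. It rose by 0.83 (SE 0.16, adjusted p = 0.032) against Sar1B, and its difference from control was 0.46 (SE 0.16, adjusted p = 0.088). The call against Sar1B was lost without Sar1B line 1 (adjusted p = 0.10), Sar1B line 2 (0.099) or either control line (0.093 each). A second Rab5a probe set, 1387641_at, rose by 0.92 (SE 0.10, adjusted p = 0.0057) against Sar1B and by 1.44 against control.

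Rab5b had 5 probe sets, and it was the one Rab gene with calls in opposite directions. The brightest, 1388823_at, read 10.56 and 10.83 in Sar1B:H79G, 11.19 in the Sar1A line, 11.25 and 11.30 in Sar1B and 11.17 and 11.12 in control lines, and fell by 0.45 (SE 0.10, adjusted p = 0.026) against control. The probe set 1392643_at read 8.43 and 8.26 in Sar1B:H79G, 8.74 in the Sar1A line, 8.77 and 8.85 in Sar1B and 7.94 and 7.77 in control lines, and rose by 0.49 (SE 0.09, adjusted p = 0.017). Against Sar1B both fell, by 0.59 (SE 0.10, adjusted p = 0.021) and by 0.46 (SE 0.09, adjusted p = 0.037). The direction of Rab5b against control therefore depends on the probe set, and its mean over all 5 was 0.07 (adjusted p = 0.46). The brightest probe set's call was lost against control without Sar1B:H79G line 1 (adjusted p = 0.066), control line 1 (0.096) or control line 2 (0.12), and against Sar1B without Sar1B line 1 (0.059), Sar1B line 2 (0.097) or either control line (0.064 each).

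Rab14, which works between the Golgi and endosomes, had line means at its brightest probe set that separated the controls from all other lines. It read 11.98 and 12.04 in Sar1B:H79G, 11.86 in the Sar1A line, 11.99 and 12.04 in Sar1B and 11.48 and 11.25 in control lines. Single arrays overlapped, at 11.72 to 12.73 in Sar1B:H79G and 11.12 to 11.84 in control. The probe sets 1367884_at and 1376796_at also set the control line means apart. At 1385314_at, control line 1 (9.48) lay above both Sar1B:H79G lines (9.40 and 9.34). The difference from control was 0.65 (SE 0.09, adjusted p = 0.0068) for Sar1B:H79G, 0.50 (SE 0.11, adjusted p = 0.083) in Sar1A and 0.65 (SE 0.09, adjusted p = 0.018) in Sar1B, and Sar1B:H79G and Sar1B differed by -0.01 (SE 0.09). Over the mean of its 5 probe sets, 1 of them very dim, Rab14 was at 0.36 (adjusted p = 0.081) in Sar1B:H79G and at 0.57 (adjusted p = 0.055) in Sar1B, so that neither call held. The call in Sar1B was also lost without Sar1B line 1 (adjusted p = 0.056), Sar1B line 2 (0.076) or control line 2 (0.10). Rab11a, of the recycling endosome, read 11.59 and 11.78 in Sar1B:H79G, 11.39 in the Sar1A line, 11.33 and 11.52 in Sar1B and 11.31 and 10.90 in control lines. Its rise of 0.58 (SE 0.15, adjusted p = 0.043) against control was not called under 8 of 15 alternatives, among them those without Sar1B:H79G line 1 (0.071), Sar1B:H79G line 2 (0.13), either Sar1B line (0.053 each) or control line 2 (0.17).

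**Figure D3:**
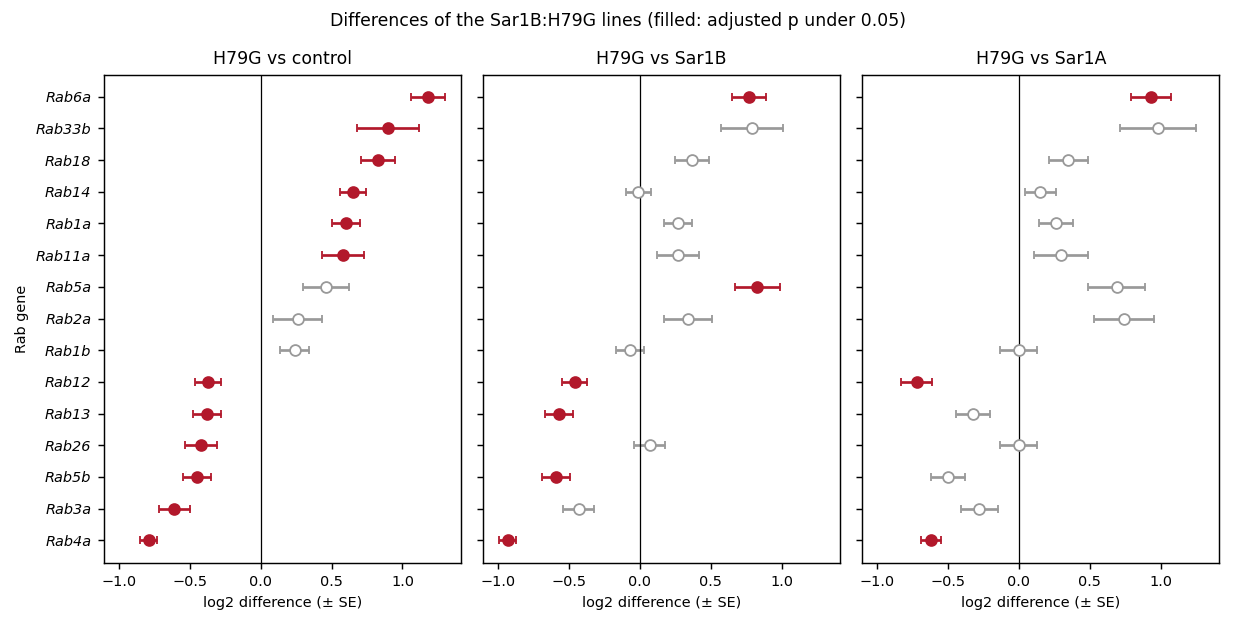
Log2 difference (± SE) of the Sar1B:H79G lines from control, Sar1B and Sar1A lines for the named Rab genes and those called against control, Rab37 left out. Filled red points have an adjusted p under 0.05; Rab6a is to the right and Rab4a and Rab12 to the left in all 3 panels, whereas Rab14 is at 0.65 against control and at -0.01 against Sar1B.

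Of the 12 exocytic and granule Rab genes, Rab3a, Rab13 and Rab26 fell in the Sar1B:H79G lines against control, where 10.6% of all genes fell. Rab3a, known from regulated exocytosis, read 7.65 and 7.72 in Sar1B:H79G, 7.97 in the Sar1A line, 8.01 and 8.21 in Sar1B and 8.18 and 8.41 in control lines, a fall of 0.61 (SE 0.11, adjusted p = 0.013) that was lost without control line 2 (adjusted p = 0.078) and was 0.40 (adjusted p = 0.026) over the mean of its probe sets. Of these 7 values, 4 lie below the median probe set, at 8.13. Rab13, which acts at cell junctions, fell by 0.38 (SE 0.10, adjusted p = 0.044) against control and by 0.57 (SE 0.10, adjusted p = 0.025) against Sar1B. Rab26, of secretory granules, fell by 0.42 (SE 0.11, adjusted p = 0.042) against control in Sar1B:H79G and by 0.49 (SE 0.11, adjusted p = 0.048) in Sar1B, and it too lies near the median probe set. The Rab13 call against control was lost without any 1 of the 4 lines compared (adjusted p from 0.11 to 0.15), and that against Sar1B without any line but Sar1B line 1 (0.064 to 0.078). Both Rab26 calls were lost without any line but control line 1 (0.06 to 0.16).

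Among the 10 genes of late endosomes, lysosomes and autophagy, Rab12 fell in the Sar1B:H79G lines in all 3 comparisons. Rab12, which directs recycling cargo to lysosomes, read 10.65 and 10.56 in Sar1B:H79G, 11.33 in the Sar1A line, 10.95 and 11.18 in Sar1B and 10.99 and 10.96 in control lines. It fell by 0.37 (SE 0.09, adjusted p = 0.036) against control, by 0.46 (SE 0.09, adjusted p = 0.033) against Sar1B and by 0.72 (SE 0.11, adjusted p = 0.032) against Sar1A. The call against control was lost without any 1 of the 4 lines compared (adjusted p from 0.075 to 0.15), that against Sar1B without any line but Sar1B line 1 (0.066 to 0.12), and that against Sar1A without Sar1B:H79G line 2 (0.084) or either control line (0.099 each). The second Rab12 probe set, 1371055_at, was at 0.00 (SE 0.16, adjusted p = 1) against control, -0.38 (adjusted p = 0.24) against Sar1B and -0.77 (adjusted p = 0.11) against Sar1A. Over the mean of both probe sets no call held, with -0.18 (adjusted p = 0.31), -0.42 (0.081) and -0.75 (0.054). Rab9a, of late endosome to Golgi return, fell by 0.36 (adjusted p = 0.036) against Sar1B, a call lost without 5 of the 6 lines that could be left out, all but Sar1B:H79G line 2 (adjusted p from 0.072 to 0.15). The remaining genes of this group ran from -0.19 to 0.14 against control, and the 4 genes with less defined roles from -0.06 (Rab40c) to 0.25 (Rab23).

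Rab40b, of the SOCS-box Rab40 branch that joins ubiquitin ligases, had the largest called fall of any Rab probe set against control, at its dimmer one. That probe set, 1383826_at, read 5.14 and 5.63 in Sar1B:H79G, 5.91 in the Sar1A line, 5.83 and 6.58 in Sar1B and 6.58 and 6.93 in control lines, a fall of 1.37 (SE 0.28, adjusted p = 0.021). The brighter one was at 0.21 (SE 0.06, adjusted p = 0.0504), and both lie below the median probe set in every line. In all, 8 Rab genes had a call against control at another probe set and none at the brightest: Rab2a, Rab5a, Rab7a, Rab10, Rab17, Rab22a, Rab23 and Rab40b. Of these, Rab17 (0.27, limma adjusted p = 0.036) and Rab23 (0.36, adjusted p = 0.040) rose and Rab22a fell by 0.26 (adjusted p = 0.040). How many of all genes were called only at another probe set was not counted, so the 8 have no background to be set against.

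Rab37, a Rab linked to secretory granules and regulated exocytosis, was high in the Sar1A line only. Its 4 Sar1A arrays read 10.84, 10.56, 10.64 and 10.60. The 8 Sar1B:H79G arrays read 7.83 to 8.15, the 8 Sar1B arrays 7.54 to 7.91 and the 5 control arrays 7.82 to 8.02. As line means it was 10.66 in the Sar1A line, 8.04 and 7.90 in Sar1B:H79G, 7.83 and 7.80 in Sar1B and 7.87 and 7.95 in control lines, so that the other 6 lines lay within 0.24 of each other and below the median probe set.

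The difference was 2.75 (SE 0.09, 6.75-fold, limma adjusted p = 0.0021) between Sar1A and control, 2.84 (SE 0.09, 7.18-fold, adjusted p = 0.0017) between Sar1A and Sar1B, and -2.69 (SE 0.09, adjusted p = 0.0024) between Sar1B:H79G and Sar1A. All 6 lines set against Sar1A read below the median probe set and no detection calls were used, so that Rab37 was not shown to be above background there, and these folds describe the array signal. The SE rests on the spread of those 6 lines and on limma's spread over all probe sets. It does not measure how clones with a high Rab37 signal vary. Against control Rab37 ranked 1 of 14217 genes by size of the signal difference. At the brightest probe sets it was the one Rab gene called in Sar1A against control, where 0.661% of all genes rose and 0.204% fell. It was joined there by Rab6a (1.18) and Rab5b (0.88) when other probe sets were counted, which was not done for all genes. Between Sar1A and Sar1B it was the only gene called of all 14217, so that 0.00703% of genes were higher and 0% lower (780 genes were lower at an unadjusted p under 0.05). By size it ranked 4 there. The size kept within 2.83 and 2.86 under every alternative, but the call rests on 1 clone, and a property of that clone and the Sar1A construct cannot be told apart. With 3 residual degrees of freedom the call was lost without control line 1 or 2 (adjusted p = 0.065 and 0.12 against control, 0.058 each against Sar1B) or, against Sar1B, with only these groups fitted (0.18), and the one-line Sar1A group has no second line to set against it. Rab37 had 1 probe set, so that no second one could be set beside it.

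In the Sar1B lines against control, Rab14 rose and Rab26 fell at the brightest probe set, 1.79% of the Rab genes in each direction, against 4.72% and 2.01% of all genes. At another probe set only, 6 more Rab genes rose: Rab2a, Rab5a, Rab5b, Rab6a, Rab7a and Rab17. The share of all genes called in that way was not counted. After quantile normalization the balance over all genes was 394 higher and 587 lower, against 671 and 286 here, and it was 501 and 398 with arrays set to the same median. For Sar1A against control quantile normalization gave 96 higher and 81 lower, against 94 and 29. The Rab calls in these comparisons were the same number under both settings. The count of 2 in Sar1B was 0 without Sar1B line 1, Sar1B line 2 or control line 2 (limma; 12, 13 and 8 genes at an unadjusted p under 0.05) and 5 without either Sar1B:H79G line.

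Probe sets of 1 gene disagreed more in comparisons with control than in those among the Sar1 groups. Construct and array series differ together in the former, so their parts cannot be told apart. For the 16 Rab genes with 2 or more probe sets above the median, the range between a gene's probe sets had a median of 0.36 log2 units in Sar1B:H79G against control and of 0.15 in Sar1B:H79G against Sar1B. It exceeded 0.58 for 6 genes in the first comparison, while the largest range in the second was 0.30 (Rab2a). The same held over all 2258 such genes, with medians of 0.35 and 0.12. With dim probe sets included, the medians over 27 Rab genes were 0.29 and 0.13, and the largest ranges were 1.58 and 0.78, both of Rab40b. Between Sar1A and control the Rab median was 0.43, and between Sar1A and Sar1B it was 0.09.

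Rab6a and Rab14 show what this means for a level. The second Rab6a probe set, 1371103_at, read 11.12 and 10.99 in Sar1B:H79G, 10.24 in the Sar1A line, 10.29 and 10.21 in Sar1B and 9.22 and 8.91 in control lines. It rose by 1.99 (SE 0.12, adjusted p = 9.3e-04) against control, well above the 1.18 of the brightest probe set, and by 1.19 and 1.18 in Sar1B and Sar1A. Against Sar1B, its difference of 0.80 (SE 0.12, adjusted p = 0.013) was near the 0.77 of the other. For Rab14, the differences of Sar1B:H79G from control were 0.65 at the brightest probe set and 1.12 at 1367884_at, and from Sar1B they were -0.01 and -0.21. Rab10, of exocytic carriers, was at 0.08 and 0.76 against control, and Rab7a, of late endosomes, at 0.04 and 0.48, with 1 of the probe sets called in each. The part of the array series in these differences was not tested.

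**Figure D4:**
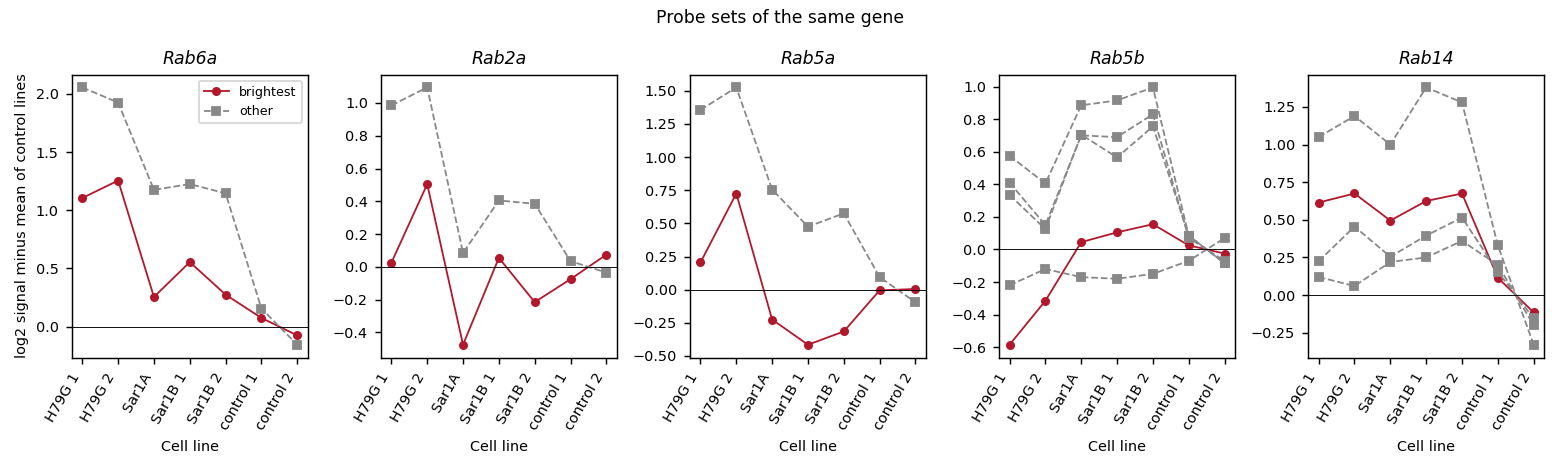
Line means of each probe set of Rab6a, Rab2a, Rab5a, Rab5b and Rab14, as log2 signal minus the mean of the control lines (solid red, brightest probe set; dashed grey, others; 1 very dim Rab14 probe set is left out). The dashed probe set of Rab6a, Rab2a and Rab5a lies above the brightest in all 5 Sar1 lines, while for Rab5b the brightest lies below 0 in both Sar1B:H79G lines, 3 others lie above 0 in all 5 Sar1 lines and 1 is nearly flat.

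Genes that act on Rab proteins were counted from lists of 3 kinds. Of 8 measured genes of prenylation and membrane cycling, 5 rose in the Sar1B:H79G lines against control and 1 rose against Sar1B, with medians of 0.34 and 0.05. Over all genes 13.4% rose against control and 4.9% against Sar1B, with medians of 0.02 and 0.01. Chm, the Rab escort protein that presents Rabs for prenylation, read 8.57 and 8.80 in Sar1B:H79G, 8.65 in the Sar1A line, 8.61 and 8.78 in Sar1B and 8.03 and 7.97 in control lines, so that only the controls stood apart. It rose by 0.69 (SE 0.10) against control both in Sar1B:H79G (adjusted p = 0.0081) and in Sar1B (adjusted p = 0.020), the first call being lost without control line 2 (adjusted p = 0.073) and over the mean of its probe sets (0.24, adjusted p = 0.060). Fnta, the alpha subunit of the farnesyl and type I geranylgeranyl transferases, rose by 0.84 (SE 0.16, adjusted p = 0.018) against control. It is not a subunit of the type II enzyme, which prenylates most Rab proteins. The Fnta call was lost without Sar1B:H79G line 1 (0.73) and without control line 2 (0.67). Rabac1, the prenylated Rab acceptor of the Golgi, read 11.20 and 11.39 in Sar1B:H79G, 10.60 in the Sar1A line, 10.33 and 10.51 in Sar1B and 10.94 and 10.85 in control lines. In Sar1B:H79G it was higher than in Sar1B by 0.87 (SE 0.10, limma adjusted p = 0.0064) under all alternatives. Part of this gap lies in the Sar1B lines, where Rabac1 was called lower than in control (-0.47, SE 0.10, adjusted p = 0.042). Against control, Rabac1 rose by 0.40 (SE 0.10, adjusted p = 0.035) in Sar1B:H79G. Leaving out Sar1B:H79G line 2 or either control line ended that call, as did quantile normalization (0.26, adjusted p = 0.0505).

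Of 41 measured exchange factors, 6 rose and 7 fell against control (13.4% and 10.6% of all genes), and 3 rose and 1 fell against Sar1B (4.9% and 7.18%). Dennd2b, an exchange factor that acts on Rab13 in human cells, read 8.63 and 8.54 in Sar1B:H79G, 9.08 in the Sar1A line, 9.26 and 9.43 in Sar1B and 9.60 and 9.67 in control lines. It fell by 1.05 (SE 0.08, adjusted p = 0.0014) against control and by 0.76 (SE 0.08, adjusted p = 0.0059) against Sar1B, under all alternatives. Rgp1, which with Ric1 forms an exchange factor for Rab6a in human cells, read 10.32 and 10.57 in Sar1B:H79G, 10.10 in the Sar1A line, 10.00 and 10.02 in Sar1B and 10.00 and 10.11 in control lines. Its rise of 0.43 (SE 0.10, adjusted p = 0.0498) against Sar1B sat at the threshold and was lost without Sar1B:H79G line 2 (0.13) or any Sar1B or control line. Dennd3, which acts on Rab12 in human cells, rose by 0.46 (SE 0.09, adjusted p = 0.027) against Sar1B, lost without either Sar1B line (0.10 and 0.088), Sar1B:H79G line 1 (0.071) or either control line (0.073 each). Sbf2 rose by 0.77 (SE 0.09, adjusted p = 0.0034) against control under all alternatives, and Rin2, which acts on Rab5, fell by 0.73 (SE 0.14, adjusted p = 0.019), a call lost without control line 2 (0.12) and over the mean of its probe sets (-0.34, adjusted p = 0.062).

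Of 35 measured Rab GTPase-activating proteins and their relatives, 8 rose and 7 fell against control, where 13.4% of all genes rose and 10.6% fell, and 3 rose and 1 fell against Sar1B, where 4.9% rose and 7.18% fell. Tbc1d23, a TBC-domain protein that links endosome-derived vesicles to golgins at the trans-Golgi, read 10.19 and 10.52 in Sar1B:H79G, 8.95 in the Sar1A line, 8.98 and 8.95 in Sar1B and 9.08 and 9.23 in control lines. It rose by 1.20 (SE 0.12, adjusted p = 0.0029) against control and by 1.39 (SE 0.12, adjusted p = 0.0037) against Sar1B under all alternatives, and by 1.40 (SE 0.15, adjusted p = 0.012) against Sar1A. Tbc1d9 fell by 0.96 (SE 0.13, adjusted p = 0.0095) against Sar1B under all alternatives. Rab3gap2, a subunit of the complex that activates Rab18 in human cells, rose by 0.96 (SE 0.16, adjusted p = 0.012) against control, with lines of 9.43 and 9.95 in Sar1B:H79G and 8.71 and 8.75 in control, and was lost without control line 1 or 2 (adjusted p = 0.063 and 0.088). Grtp1 fell by 0.91 (SE 0.20, adjusted p = 0.028) against control, lost without any 1 of the 4 lines compared (0.056 to 0.11). Tbc1d17 rose by 0.43 (SE 0.08, adjusted p = 0.030) against Sar1B, lost without either Sar1B line (0.10 and 0.12), Sar1B:H79G line 2 (0.093) or either control line (0.065 each).

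**Figure D5:**
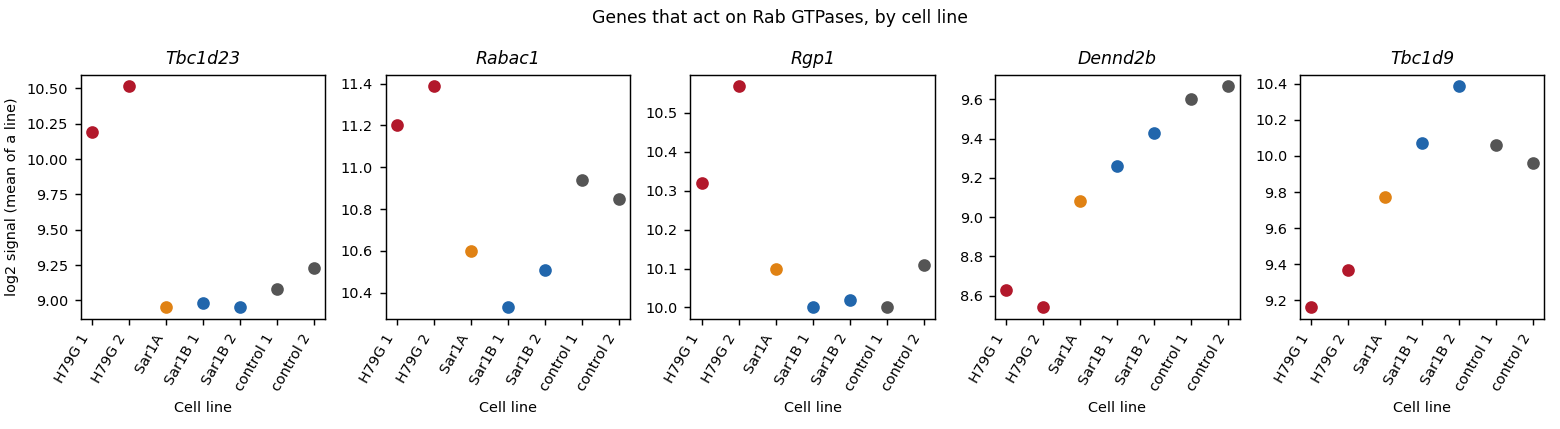
Line means of log2 signal for 5 genes that act on Rab proteins, with a point for each of the 7 lines. Tbc1d23, Rabac1 and Rgp1 are highest and Dennd2b and Tbc1d9 lowest in both Sar1B:H79G lines.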

How the data were processed

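RNA of 7 lines was hybridised to 25 Affymetrix rat arrays. The authors normalized the intensities by loess and summarised them with MAS5 in CARMAweb, whose version is not given in the sources used here. The deposited values were taken as log2 from their range, carry no detection calls and were used as they stand. Loess scaling makes levels relative to the array, and MAS5 values are noisy for dim probe sets. Of 31099 probe sets, 57 array controls were left out.

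Line means were fitted with limma 3.58.1 (R 4.3.3; 4 group coefficients, 3 residual and 3.16 prior degrees of freedom), with Benjamini-Hochberg adjustment over 31042 probe sets. The small number of lines in a group, rather than of arrays, limits the precision. The fit was tried on simulated line means in which 200 of the 31042 probe sets were changed by 1 log2 unit. For Sar1B:H79G against control, 75% of these were called, with 9 unchanged probe sets called, and for Sar1A the share was smaller. The simulation had no array series and far fewer changed probe sets than were called in the data, so it does not check that comparison in full. Symbols came from the platform annotation; promoters came from RefSeq (GRCr8). Members and lists were chosen with earlier results of these data known. Named genes were Rab37, Rab1a, Rab1b, Rab2a, Rab6a, members called with a log2 difference of at least 0.58, members with probe sets called in opposite directions and, of each list, the 3 called genes with the largest changes; others are given by count or range, except those said to be chosen on their values. Rab7a, Rab9a, Rab10, Rab13, Rab17, Rab22a, Rab23, Rab26 and Rab40b are named in addition, as called members or as members with 1 called probe set.

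Alternatives were arrays as replicates, the line as a random block, the line number as a block, quantile and median scaling, probe sets above the median only, the compared groups only, a trended robust prior, the mean of all probe sets and each line left out.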

Additional observations from a re-analysis of the deposited data

Results flagged for a closer look

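In all, 9 single arrays lay far from the rest of their group by Dixon's criterion, out of 68 sets of arrays looked at, where chance flags about 1 in 20. That rate is a rough guide, since every group but Sar1A pools arrays of 2 lines. Far is relative to the spread of a set: the Sar1A array flagged for Rab13, at 10.16, lay beside others at 10.23. The far arrays of Sar1B:H79G and of control for Rab14 read 12.73 and 11.84. Those of Sar1A read 11.41 for Rab2a, 10.16 for Rab13, 11.47 for Rab18 and 7.74 for Rab26. Those of Sar1B read 10.36 for Rab9a and 7.54 for Rab37, and that of control for Rab18 read 10.69.

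Lines of different constructs differed from each other for 8 Rab genes at the brightest probe sets, by limma's test of the difference itself. These calls are those given above, and of them only Rab4a against Sar1B held under all 15 alternatives. Over all genes 4.9% were higher and 7.18% lower in Sar1B:H79G against Sar1B, and 1.98% and 2.22% against Sar1A. For the single Sar1A line, clone and construct cannot be told apart. Between Sar1B:H79G and Sar1B the log2 difference was -0.93 for Rab4a, 0.83 for Rab5a, -0.59 for Rab5b, 0.77 for Rab6a, -0.36 for Rab9a, -0.46 for Rab12 and -0.57 for Rab13. Between Sar1B:H79G and Sar1A it was -0.62 for Rab4a, 0.93 for Rab6a, -0.72 for Rab12 and -2.69 for Rab37. Between Sar1A and Sar1B it was 2.84 for Rab37.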

How the results depend on the processing

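Of 27 calls of Rab genes, 3 held under all 15 alternatives: Rab4a in Sar1B:H79G against control and against Sar1B, and Rab6a against control. The 6 counts of called Rab genes are given in the order Sar1B:H79G against control, Sar1B and Sar1A, Sar1B against control, Sar1A against control and Sar1A against Sar1B, where they were 12, 7, 4, 2, 1 and 1. With each array as a replicate they were 28, 24, 16, 26, 25 and 7, and with random blocks for lines 21, 20, 12, 17, 12 and 4, since arrays of 1 clone then add degrees of freedom. With only the groups compared, they were 10, 2, 0 (9 genes at an unadjusted p under 0.05, limma), 5, 4 and 0 (5 at an unadjusted p). With the line number as a replicate block they were 10, 6, 2, 1, 1 and 1. Line numbers only name clones and did not pair the lines: deviations of same-numbered lines correlated at 0.0071, 0.192 and 0.0752. For Sar1B against control the count was 1 with probe sets above the median only and 4 with a trended robust prior. Leaving out 1 line gave 3 to 10, 1 to 6, 1 to 7, 0 to 5, 0 to 1 and 0 to 1. For Sar1A against control and against Sar1B, the 0 came without control line 1 (15 and 4 genes at an unadjusted p) or control line 2 (6 and 4). Rab5b turned from -0.45 to 0.07 against control with the mean of its probe sets, which include some that were higher. The causes of the other shifts were not tested. Signal near the median probe set, as for Rab3a, Rab26 and Rab37 outside Sar1A, limits how far low values can be read, since no detection calls were used.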

Other observations

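The neighbours of Rab37 were looked at after its level in the Sar1A line was seen. Among the 10 protein-coding genes on each side of it in RefSeq's gene order, 4 had a probe set with a single symbol. Nherf1, a scaffold of the apical membrane, read 13.30 in Sar1A, 12.13 and 12.13 in Sar1B:H79G, 12.62 and 12.82 in Sar1B and 12.64 and 12.46 in control lines. The Sar1A line was the highest of the 7, with a difference of 0.75 from control (limma adjusted p = 0.051) and of 0.58 from Sar1B (adjusted p = 0.33). Nat9 read 9.78 in Sar1A, 9.96 and 10.37 in Sar1B:H79G, 9.11 and 9.21 in Sar1B and 9.40 and 9.27 in control lines. Cd300c2 and Grin2c differed from control by 0.13 and 0.06 in Sar1A.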
